A study of Cyprinus carpio with 6 samples.

Results

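Period genes encode clock proteins that enter the nucleus with cryptochromes and hold back the activators clock and arntl, which in turn switch Period genes on through E-box sites. The resulting loop gives each cell a daily rhythm, and Period proteins are timed further by phosphorylation and breakdown. In zebrafish, per2 is known to be induced by light, while per1 and per3 copies cycle through the day. Common carp carries an additional genome duplication, so that a zebrafish gene often has more than 1 carp copy.

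The Period rows were taken from the deposited gene table of carp brain by the words "period circadian protein homolog" in the description, which matched 6 of 53152 genes. Of these, 2 were described as homolog 1, 4 as homolog 2 and 0 as homolog 3. Brain messenger RNA of common carp (Cyprinus carpio) was sequenced in 3 libraries from fish with the agent lead and in 3 libraries from fish with no agent, called control here. The title names lead-induced brain injury as the question. All 6 libraries came from brain, and the labels used here give no strain, age, dose, duration, hour of sampling or light cycle. Nothing states that the libraries are from different fish, so p-values measure only the spread between these libraries, which may be technical.

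Libraries held 27841520 to 32826120 counts over genes with lead and 31159339 to 34848243 in control. The Period rows together took 380 to 443 CPM (counts scaled to a fixed library total) in lead libraries and 239 to 399 in control libraries. Control replicate 1 stood apart, with 1.93% of its counts in a single gene, LOC109085354, against 0.486% to 0.772% in the other 5 libraries. Marker sums took in all rows of a list, tested or not. Neuron markers (47 of 63 rows tested) summed to 5083 to 6007 TMM-scaled CPM in lead libraries and 5241 to 6257 in control libraries. Of the 63 rows, 4 were at 0 in all libraries. By edgeR 0 of the tested rows were called, with 1 higher and 9 lower before adjustment (median log2 fold change -0.29). Glia markers (12 of 18 rows tested) summed to 619 to 747 in lead and 919 to 1080 in control libraries. By edgeR 0 of them were called, with 0 higher and 7 lower at p under 0.05 before adjustment (median log2 fold change -0.69). Over all tested genes 7.53% were higher and 8.77% lower at that p, and 0.0591% were called after adjustment. Pituitary markers (2 of 9 rows tested) summed to 14.3 to 27.2 in lead and 4.91 to 14.1 in control libraries. Blood markers (21 of 36 rows tested) summed to 1184 to 1629 in lead and 1026 to 1417 in control libraries. EdgeR called 0 in either list. Before adjustment, 1 was higher and 0 lower in pituitary, and 1 higher and 2 lower in blood. Pineal and retina markers (9 of 39 rows tested) summed to 74.2 to 89.0 in lead and 69.8 to 79.8 in control libraries. Of them 1 fell, the cone phosphodiesterase LOC109067327 (log2 fold change -4.76, SE 0.41, edgeR adjusted p = 0.0132, and 0.0538 without lead replicate 3). An adjusted p above 0.05 came from 6 of 18 other fits of this row. EdgeR with a replicate block gave 0.102, and limma gave 0.0619, 0.147 and 0.172 on log2(FPKM) with 1, 0.1 and 0.01 added. Its log2 fold change was only -1.68 in limma with 1 added, and it was not tested at a minimum of 5 FPKM. With 0.1 and 0.01 added that log2 fold change was -3.84 and -4.86, so lead levels lay under 1 FPKM. The row thus met the FPKM condition for testing through control libraries, which ties its fall to the filter. Whether these markers have a part in the Period values was not tested, and in bulk tissue fewer cells of a type and less RNA per cell cannot be told apart.

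The annotation of the 6 rows was not uniform. LOC109057293, LOC109057329 and LOC109065759, all described as homolog 2, carried the KEGG orthology group K02633, which in KEGG is that of period circadian protein 2. LOC109098972 and LOC109098973, described as homolog 1, and LOC109098978, described as homolog 2, all carried K21945, the group of period circadian protein 3. These 3 K21945 rows lie together on sequence NC_031718.1, all on the plus strand, in the positions of the table; no source used here names its assembly. LOC109098972 runs from 4718709 to 4936011, LOC109098973 from 4721786 to 4724088 and LOC109098978 from 4752218 to 4949262. LOC109098972 and LOC109098978 share 183.8 kb, and LOC109098973 lies inside the span of LOC109098972. Rows for a vesicle-associated membrane protein 3, a tumor necrosis factor receptor superfamily member 9 and a prepro-urotensin II lie within or beside them, genes that also flank PER3 in human. Description and KEGG group thus differ for all 3 rows, which are named here by their gene IDs, and values by described type, sums included, carry that doubt. The reads of overlapping rows may have been split between them in a way that is not given, so their single values are uncertain. In RefSeq's newer carp assembly ASM1834038v1, where 4 of the 6 gene IDs were found, LOC109098972 and LOC109098978 are on different chromosomes.

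**Figure D1:**
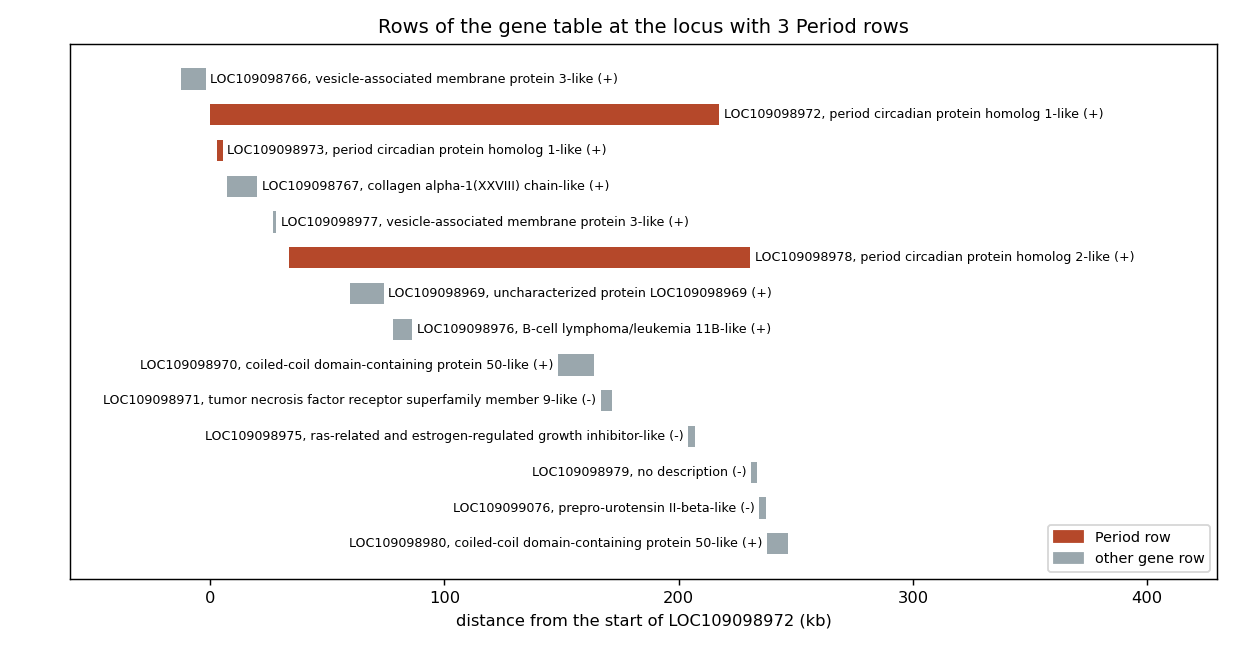
Rows of the gene table at the locus of the 3 K21945 Period rows, drawn by distance in kb from the start of LOC109098972; bars are the gene spans, and the strand stands in parentheses. The 2 long Period rows overlap over 183.8 kb and enclose rows of unrelated genes.

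The other homolog 2 rows lie elsewhere. LOC109057329 (434837 to 464064) and LOC109057293 (614370 to 649526) are on the plus strand of NW_017538008.1, each with a row for the transcription cofactor HES-6 just downstream, as human PER2 has HES6. LOC109065759 (921511 to 932152) is on the minus strand of NW_017538287.1. The transcript length implied by the counts and FPKM values was 4968 nt for LOC109057293, 6109 nt for LOC109057329 and 4769 nt for LOC109098978. It was only 710 nt for LOC109065759, 1291 nt for LOC109098972 and 1044 nt for LOC109098973, so that these 3 rows are short gene models.

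None of the 6 Period rows was called between lead and control brains. All 6 reached an FPKM of 1 in 3 or more libraries, the condition for testing, and edgeR's quasi-likelihood test gave adjusted p values from 0.234 to 0.878. Over all 32149 genes tested, 0.0591% were called at an adjusted p under 0.05 (0.0467% higher and 0.0124% lower). Before adjustment, at p under 0.05, 1 of the 6 rows (LOC109065759) was lower and 0 were higher, where 16.3% of all tested genes passed in either direction (7.53% higher and 8.77% lower). DESeq2 and limma also called 0 of the 6, with 2 rows under an unadjusted p of 0.05 in DESeq2 and 1 in limma on log2(FPKM + 1). In edgeR the number under an unadjusted p of 0.05 was 0 without control replicate 3, and 2 without lead replicate 1 or lead replicate 3. Without control replicate 2 it was 1, but that row was LOC109098978, which was higher, and LOC109065759 did not pass. The median log2 fold change of the 6 rows was -0.15, beside a median near 0 (-0.0088) over all tested genes.

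By FPKM, which is scaled to transcript length and allows copies to be compared, LOC109098978 was the highest Period row, with 59.8 ± 4.06 in lead and 47.2 ± 13.1 in control brains (SD, n = 3 each). The next 3 had close means in lead brains, but LOC109057329 was below the others in control brains. LOC109057329 had 10.3 ± 7.37 FPKM in lead and 5.55 ± 0.666 in control brains. Its lead mean rests on lead replicate 2 (18.8 FPKM, against 6.19 and 5.86 in lead replicates 1 and 3). LOC109057293 had 9.33 ± 1.04 in lead and 10.6 ± 2.58 in control brains. LOC109098972 had 8.66 ± 3.61 in lead and 10.96 ± 3.90 in control brains. These 3 rows did not differ beyond their spread in lead libraries, and neither did LOC109057293 and LOC109098972 in control libraries. LOC109098973 had 3.16 ± 0.362 FPKM in lead and 3.997 ± 2.24 in control brains. LOC109065759 was the lowest with 0.750 ± 0.259 in lead and 2.404 ± 0.617 in control brains (SD, n = 3 each).

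LOC109098978, described as homolog 2, had 306, 283 and 306 TMM-scaled CPM (CPM further scaled between libraries) in lead replicates 1, 2 and 3, against 155, 286 and 219.8 in control replicates 1, 2 and 3. The lead libraries lay close together, and the control libraries were spread widely, with control replicate 2 inside the lead range. The log2 fold change was 0.44 (SE 0.22, 95% interval -0.06 to 0.94, edgeR adjusted p = 0.357). It was 0.24 without control replicate 1, the lowest library. Without control replicate 2 it was 0.67 (edgeR unadjusted p = 0.00833, adjusted p = 0.175).

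LOC109057329, the copy of per2 description with HES-6 beside it at the lower coordinates, had 40.2, 122.8 and 36.2 CPM in lead replicates 1, 2 and 3, against 28.4, 36.7 and 34.2 CPM in control replicates 1, 2 and 3. Lead replicate 2 was far above every other library, with 3198 counts where the other 5 libraries had 1018 to 1188. The log2 fold change of 1.003 (SE 0.49, 95% interval -0.17 to 2.18, edgeR adjusted p = 0.365) rests on that library and was 0.20 without it. The other copy on the same sequence, LOC109057293, did not have a raised lead replicate 2. It had 42.9, 53.3 and 49.3 CPM in lead replicates 1, 2 and 3, against 38.5, 52.6 and 62.1 CPM in control replicates 1, 2 and 3. The groups overlapped fully, with a log2 fold change of -0.07 (SE 0.20, 95% interval -0.53 to 0.38, edgeR adjusted p = 0.878). That interval spans folds of 0.693 to 1.304. The sign turned without lead replicate 1 (0.012) or control replicate 3 (0.091).

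LOC109065759, the short homolog 2 model, was the 1 Period row whose groups did not overlap, where 24.5% of all tested genes had groups that did not. It had 0.541, 0.422 and 0.740 CPM in lead replicates 1, 2 and 3, against 1.17, 2.05 and 1.78 CPM in control replicates 1, 2 and 3. These rest on 11 to 24 counts in lead libraries and 42 to 66 in control libraries, so that counting error is large. The log2 fold change was -1.54 (SE 0.52, 95% interval -2.75 to -0.33, edgeR's quasi-likelihood adjusted p = 0.234). The row met the filter through all 3 control libraries and 1 lead library, so its lower level in lead brains is tied to how it entered the test. Without control replicate 2 or control replicate 3 the unadjusted p was 0.0701 or 0.0507.

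Both rows described as homolog 1 sit in the overlapping locus. LOC109098972 had 8.15, 10.1 and 16.7 CPM in lead replicates 1, 2 and 3, against 8.10, 17.2 and 16.1 CPM in control replicates 1, 2 and 3. Each group held low and high libraries, and the log2 fold change was -0.25 (SE 0.36, 95% interval -1.09 to 0.60, edgeR adjusted p = 0.767). Lead replicate 3, the highest lead library, also had 2022 counts in the collagen alpha-1(XXVIII) row LOC109098767 inside the span of LOC109098972, where the other 5 libraries had 8 to 37. Whether reads were shared between these rows was not tested. Without lead replicate 3 the log2 fold change was -0.61. LOC109098973 had 3.79, 3.72 and 2.90 CPM in lead replicates 1, 2 and 3, against 1.45, 5.40 and 5.34 CPM in control replicates 1, 2 and 3. The lead libraries lay between the control libraries, and the log2 fold change was -0.23 (SE 0.49, 95% interval -1.37 to 0.91, edgeR adjusted p = 0.847). Its sign turned without control replicate 2 (0.033) or control replicate 3 (0.021).

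**Figure D2:**
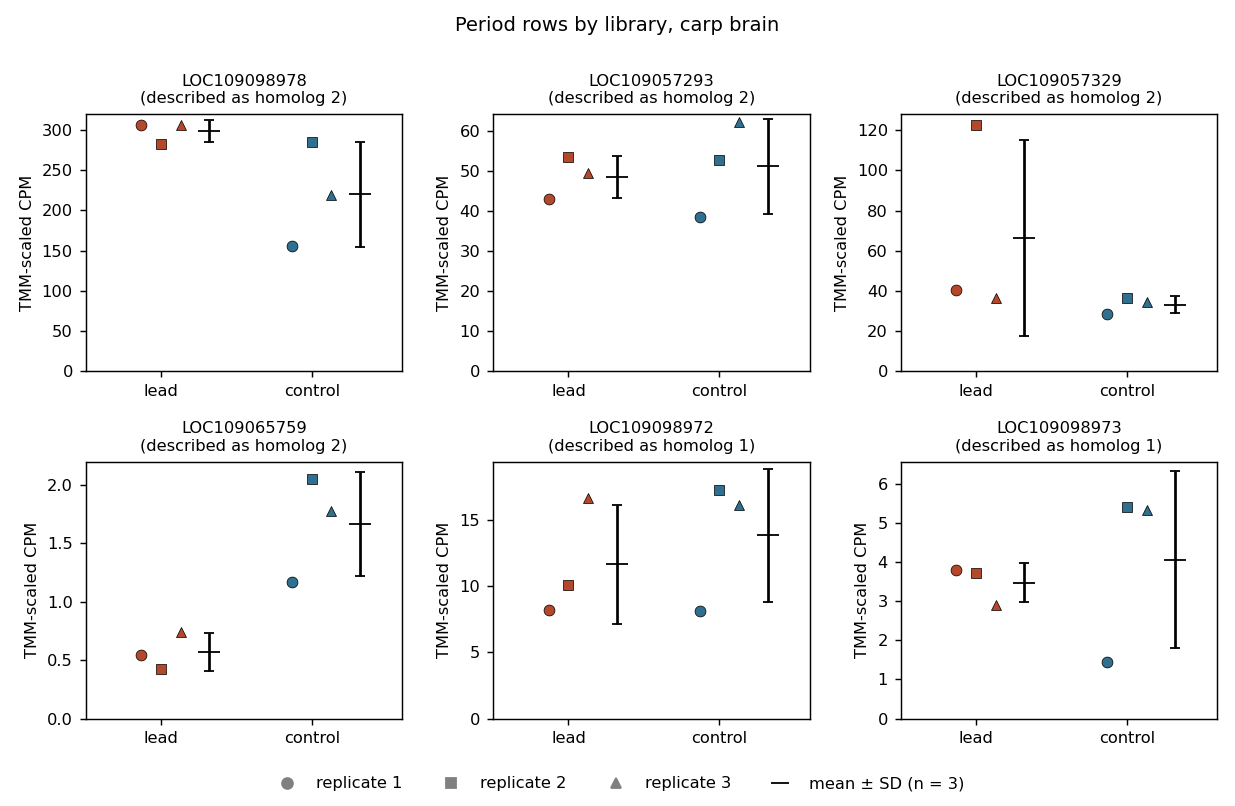
TMM-scaled CPM of the 6 Period rows in each library, lead left and control right; symbols mark the replicate number and black marks the mean ± SD (n = 3). Control replicate 1 is the lowest control library in each of the 6 panels, lead replicate 2 alone is high in LOC109057329 (122.8 CPM), and the groups are separate in LOC109065759.

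Within the control group the Period rows shared a low replicate 1, while the order of control replicates 2 and 3 differed between rows. For example, LOC109057293 had 52.6 and 62.1 CPM in control replicates 2 and 3, and LOC109098978 had 286 and 219.8. In each of the 6 rows control replicate 1 was the lowest of the 3 control libraries, which held for 32.6% of all tested genes. Since LOC109098972 overlaps both LOC109098973 and LOC109098978 in the positions of the table, these 3 of the 6 rows cannot be counted as separate observations. The low control replicate 1 was not particular to Period rows. It also held in the 3 tested K21944 rows (Period family rows outside the description) and in 7 of 8 clock activator rows. Among the other lists it held in 6 of 10 rows of other repressors of the activators and 10 of 19 REV-ERB and ROR rows. It held in 5 of 10 cryptochrome rows, 4 of 8 timeless, nocturnin and photolyase rows, and 5 of 18 D-box factor rows. Control replicate 1 is the library with the raised share of LOC109085354, and whether the 2 features are linked was not tested.

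Summed levels per described type do not depend on how counted reads were split between copies of that type. They would depend on a split between LOC109098972 and LOC109098978, which overlap but differ in described type. How reads on several copies were treated is not given, and it may also have moved the sums. The homolog 2 rows summed to 390.1, 459.7 and 393 CPM in lead replicates 1, 2 and 3, against 223, 377 and 318 CPM in control replicates 1, 2 and 3. Every lead library lay above every control library, by a fold of 1.38 between geometric means. Of single tested genes, 24.5% had groups that did not overlap. A two-sided exact permutation test gave p = 0.1, the smallest that 3 against 3 libraries allow, so no difference could pass 0.05. Without control replicate 1 the log2 difference was 0.25, against 0.47 with it. With scaling by library totals only, or on summed FPKM, the groups overlapped (log2 differences 0.37 and 0.32, exact permutation p = 0.2 each). LOC109098978 supplied most of this sum, yet its own groups overlapped, with 283 CPM in lead replicate 2 and 286 in control replicate 2. The sum of lead replicate 2 held 122.8 CPM of LOC109057329, a row with 36.7 CPM in control replicate 2. The separation of the sums thus rests in part on that 1 value. The homolog 1 rows summed to 11.9, 13.8 and 19.6 CPM in lead replicates 1, 2 and 3, against 9.55, 22.6 and 21.4 CPM in control replicates 1, 2 and 3, a fold of 0.886 (exact permutation p = 0.8). This direction turned without control replicate 2 (log2 difference 0.045) or control replicate 3 (0.0060). Another sum took the 3 K21945 rows of the overlapping locus, a grouping chosen after the data were seen. By that sum lead libraries had 318, 297 and 326 CPM and control libraries 165, 308 and 241 (fold 1.36, exact permutation p = 0.2).

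Whether copies of a type responded alike was asked through the ratio of 2 copies within a library, which depends on scaling between libraries only through the pseudocount of 0.5 CPM added to each copy. Of 7 pairs compared, 3 had ratios that did not overlap between groups, all of them with LOC109065759. They restate the separate groups of that 1 row, which met the filter mainly through control libraries, and 24.5% of single genes had groups that did not overlap. The log2 ratio of LOC109065759 to LOC109098978 was -8.14 ± 0.17 in lead and -6.65 ± 0.14 in control brains (SD, n = 3 each). The log2 ratio of LOC109057293 to LOC109065759 was 5.53 ± 0.30 in lead and 4.57 ± 0.20 in control brains, and that of LOC109057329 to LOC109065759 was 5.75 ± 1.16 in lead and 3.97 ± 0.13 in control brains (SD, n = 3 each). Each of these 3 pairs had an exact permutation p = 0.1, or 0.233 adjusted over the 7 pairs, in a design that cannot go lower than 0.1. The pseudocount is close to the lead level of LOC109065759. With a pseudocount of 0.1 the difference for LOC109065759 to LOC109098978 was -1.88, and with 1 it was -1.24, against -1.49. The difference for LOC109057329 to LOC109065759 was 1.78, and 1.12 without lead replicate 2.

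The remaining 4 pairs overlapped. The log2 ratio of LOC109057293 to LOC109057329, the copies on the same sequence, was -0.22 ± 0.86 in lead and 0.60 ± 0.22 in control brains (SD, n = 3 each; exact permutation p = 0.2). The ratio of LOC109057293 to LOC109098978 was -2.61 ± 0.21 in lead and -2.08 ± 0.31 in control brains, with p = 0.2 in the same exact test. The ratio of both homolog 1 rows, LOC109098972 to LOC109098973, was 1.56 ± 0.69 in lead and 1.75 ± 0.34 in control brains (exact permutation p = 0.7). Its difference of -0.19 turned to 0.083 without lead replicate 1 and to 0.0078 without control replicate 1. The difference for LOC109057329 to LOC109098978 was 0.29 (exact permutation p = 0.9) and turned to -0.31 without lead replicate 2.

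**Figure D3:**
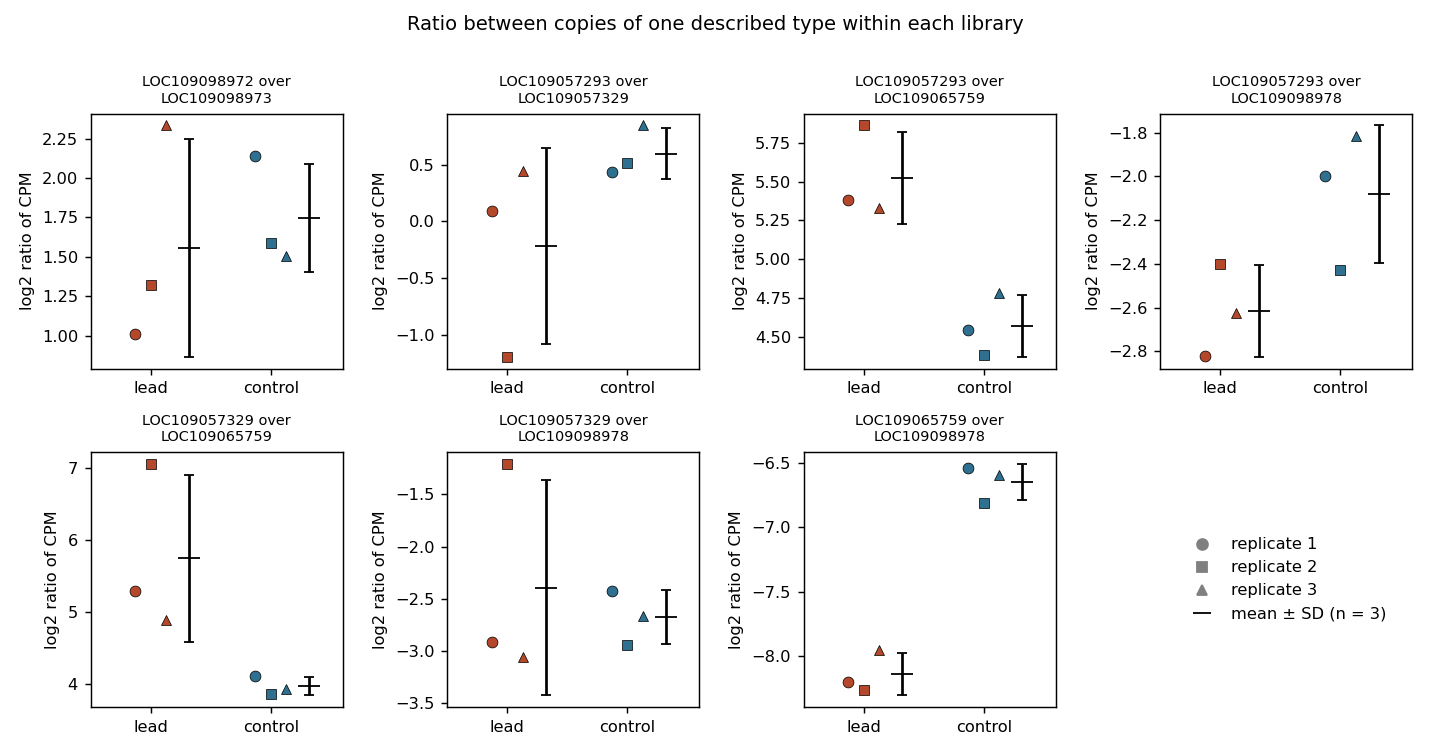
Log2 ratio of TMM-scaled CPM (+ 0.5) between 2 Period rows of one described type in each library, for 7 pairs, lead left and control right; black marks the mean ± SD (n = 3). The 3 pairs that include LOC109065759 have groups that do not overlap, and lead replicate 2 stands apart in the pairs with LOC109057329.

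Period family rows also stood outside the description. The table gave 4 further rows, all described as hypothetical proteins, the group K02633 (LOC109067915) or K21944 (LOC109066737, LOC109073334 and LOC109073326), which in KEGG is the group of period circadian protein 1. They were taken up after their values were seen. LOC109073326 has a row for vesicle-associated membrane protein 2 beside it, a gene that also lies near PER1 in human. The 3 K21944 rows had positive log2 fold changes, of which 1 passed the test, where 0.0591% of all tested genes were called. LOC109066737 had 167, 196 and 188 CPM in lead replicates 1, 2 and 3, against 54.3, 72.3 and 64.6 CPM in control replicates 1, 2 and 3. It rose by 1.53 on the log2 scale (SE 0.16; adjusted p = 0.0246 in edgeR), with all lead libraries far above all control libraries.

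That call was lost in 8 of 19 alternatives, with adjusted p from 1.6e-15 to 0.134, while its log2 fold change stayed between 1.40 and 1.63. Among them were all fits without a lead library (adjusted p 0.0685, 0.112 and 0.0776 without lead replicates 1, 2 and 3) and those without control replicate 1 (0.0627) or control replicate 3 (0.134). LOC109073334 had 146, 270.1 and 178 CPM in lead replicates 1, 2 and 3, against 72.2, 103 and 95.7 CPM in control replicates 1, 2 and 3. Its groups did not overlap either, which held for 24.5% of all tested genes. Its log2 fold change was 1.13 (SE 0.25, edgeR adjusted p = 0.163). DESeq2 gave LOC109073334 an adjusted p of 0.0017, but DESeq2 called 1340 genes over all genes where edgeR called 19. LOC109073326 had 8.52, 17.9 and 16.8 CPM in lead replicates 1, 2 and 3, against 7.29, 9.27 and 13.6 CPM in control replicates 1, 2 and 3, and its groups overlapped (log2 fold change 0.52, SE 0.34, edgeR adjusted p = 0.482). Summed, the K21944 rows gave 322, 484 and 383 CPM in lead and 134, 185 and 174 CPM in control libraries, a fold of 2.404 (exact permutation p = 0.1). LOC109067915 was under the filter, with 0 counts in each lead library and 0, 21 and 13 counts in control replicates 1, 2 and 3.

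**Figure D4:**
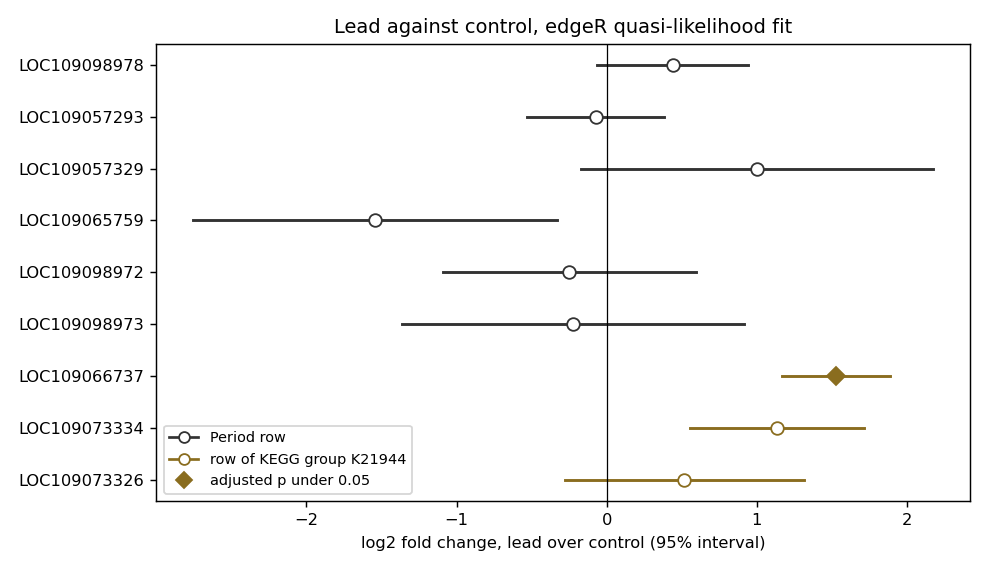
Log2 fold change of lead over control with its 95% interval (edgeR, not adjusted for the number of genes) for the 6 Period rows and the 3 tested rows of KEGG group K21944. Of the 9 rows, LOC109066737 alone has an adjusted p under 0.05, and the intervals of 5 of the 6 Period rows include 0.

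Other genes of the loop were given by lists of descriptions. Their counts are to be read beside the shares over all tested genes. Of all tested genes 0.0467% were called higher and 0.0124% lower. Before adjustment 7.53% were higher and 8.77% lower at p under 0.05. Cryptochromes, the partners of Period in the repressor complex, had 10 rows tested, of which 2 rose and 0 fell, and the median log2 fold change was -0.57. Before adjustment, 2 were higher and 3 lower at p under 0.05. Both that rose are cryptochrome-2 copies. LOC109050575 had 86.6, 109 and 99.96 CPM in lead replicates 1, 2 and 3, against 24.4, 34.2 and 24.2 CPM in control replicates 1, 2 and 3. LOC109066089 had a log2 fold change of 1.94 (SE 0.20), and both had an edgeR adjusted p = 0.0246. Other repressors of the activator complex had 10 rows tested, with 1 higher and 0 lower, a median of 1.25, and 7 higher and 0 lower before adjustment. The ciart copy LOC109111947, a repressor that binds the activator complex, rose by 2.46 on the log2 scale (SE 0.27; adjusted p = 0.0351 in edgeR). The cipc copy LOC109108117, which encodes a CLOCK-interacting repressor, had 2.03 (SE 0.25, edgeR adjusted p = 0.0627) and did not pass.

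The activators themselves, arntl, clock and npas2 copies, had 8 rows tested and 0 called by edgeR, with 1 higher and 3 lower before adjustment (p under 0.05) and a median of 0.06. The arntl copies LOC109067828 and LOC109059483 had log2 fold changes of -0.83 (SE 0.15) and -0.62 (SE 0.15), with edgeR adjusted p of 0.143 and 0.181. DESeq2 called both (adjusted p 0.000702 and 0.0189), among 1340 genes that it called over all genes.

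The second loop of REV-ERB and ROR receptors had 19 rows tested, with 3 higher, 0 lower and a median of 0.51, and with 8 higher and 5 lower before adjustment. Its rows of smallest p were the nr1d1 copies LOC109046528 (2.48, SE 0.22) and LOC109051193 (1.79, SE 0.15), each with an edgeR adjusted p of 0.0132. The third that rose, LOC109098115, is also an nr1d1 copy (3.30, SE 0.36, edgeR adjusted p = 0.0448) and was named after its values were seen. D-box factors had 18 rows tested, with 2 higher, 0 lower and a median of -0.37, and with 5 higher and 7 lower before adjustment. The 2 are the hlf copies LOC109105462 (2.63, SE 0.14, edgeR adjusted p = 0.00151) and LOC109073116 (2.30, SE 0.18, edgeR adjusted p = 0.0132). Copies of timeless, nocturnin and photolyases had 8 rows tested and 0 called, with 1 at an unadjusted p under 0.05 and a median of -0.05. That 1 was the photolyase copy LOC109050386, a DNA repair enzyme driven by light, with 0.74 (SE 0.30, edgeR adjusted p = 0.285), and next came the timeless copy LOC109061335 with -0.34 (SE 0.24, edgeR adjusted p = 0.517).

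The calls of the 8 named list genes moved with single libraries more than their sizes did. Without lead replicate 2, 7 of the 8 lost the call (adjusted p 0.0589 to 0.127), without lead replicate 1 it was 3 (0.0591 to 0.106) and without lead replicate 3 it was 4 (0.0684 to 0.1). Without control replicate 1 it was 4 (0.0627 to 0.0899), without control replicate 2 it was 2 (0.0701 to 0.113) and without control replicate 3 it was 4 (0.0538 to 0.134). The log2 fold changes all stayed positive in these fits, such as 1.75 to 2.02 for LOC109050575 and 1.73 to 1.84 for LOC109051193. LOC109105462 kept its call in each of the 6 fits (2.57 to 2.68, adjusted p 0.0083 to 0.0188). LOC109098115 lost it in 5 of the 6 (3.01 to 3.65, adjusted p 0.0304 to 0.127). The calls moved with the model too. With a replicate block in edgeR, LOC109105462 kept its call (adjusted p 0.0424) and the other named list genes lost theirs (0.0687 to 0.135). EdgeR with no robust step and no trend called 0 genes, and LOC109105462 had an adjusted p of 0.0551.

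**Figure D5:**
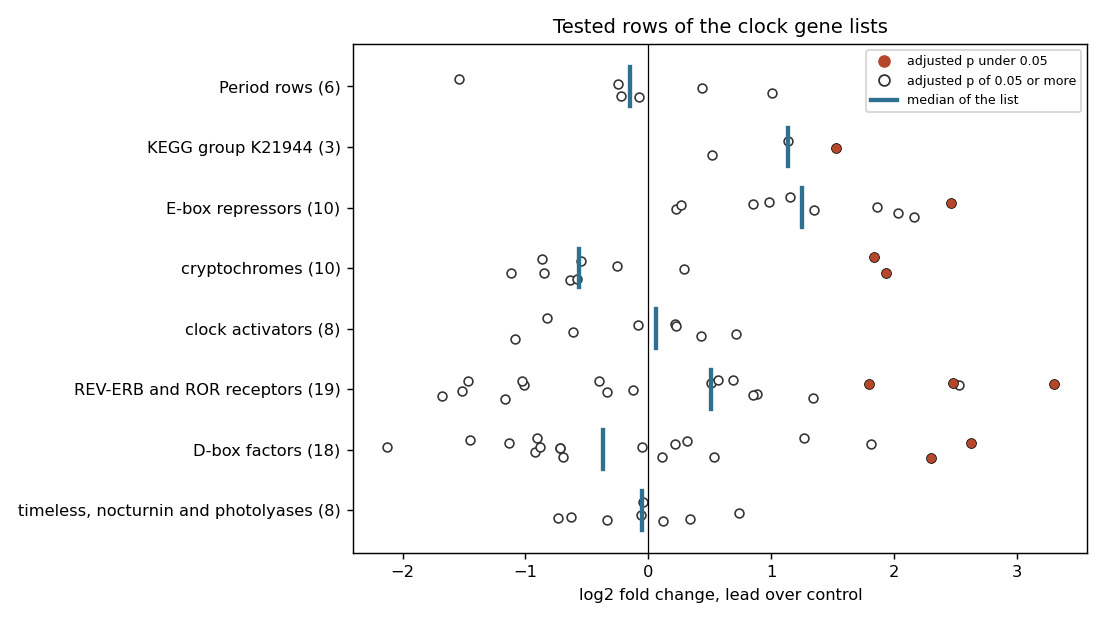
Log2 fold change of lead over control for each tested row of the Period rows, the KEGG group K21944 and 6 lists of clock genes, with the number of rows in parentheses; filled points have an adjusted p under 0.05 and bars are medians. The 6 Period rows hold no filled point and lie from -1.54 to 1.003, while the 10 rows labelled E-box repressors all lie above 0. The 10 cryptochrome rows, a separate list, have a median of -0.57.

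The tested genes whose profile over the 6 libraries was most like that of the highest Period row of each type were found by the root mean square distance of centred log2 CPM, among 19505 described genes with a mean of at least 5 CPM. For LOC109098978 they were LOC109065214, a rap guanine nucleotide exchange factor 1 (distance 0.033 on the log2 scale), LOC109075369, described as sarm1, a protein of axon degeneration (0.046), and clasp1, which binds microtubule ends (0.052). LOC109065214 had 63.6, 62.8 and 65.7 CPM in lead replicates 1, 2 and 3, against 32.6, 61.97 and 48.2 CPM in control replicates 1, 2 and 3, the same low control replicate 1. For LOC109098972 they were LOC109087288, a Kv1.1 potassium channel (0.082), LOC109066789, an adenylate cyclase type 6 (0.082), and LOC109059404, the transcription factor nuclear factor 1 X-type (0.12). None of these 6 genes belongs to the clock lists. They were picked as the nearest of 19505 genes over only 6 libraries, so small distances come with the search and show no relation. Control replicate 1 was the lowest control library in 32.6% of all tested genes.

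At the locus of LOC109098978, the row LOC109098979, which has no description, begins 342 bp beyond its end on the opposite strand. It had 16.4, 18.8 and 11.5 CPM in lead replicates 1, 2 and 3, against 5.89, 9.96 and 5.92 CPM in control replicates 1, 2 and 3. The groups did not overlap, which held for 24.5% of all tested genes. The log2 fold change of 1.103 (SE 0.29) did not pass in edgeR (adjusted p = 0.192). DESeq2 gave this row an adjusted p of 0.0282, among 1340 genes that DESeq2 called over all genes. Whether the counting used strand is not given, so reads of this row and of the end of LOC109098978 may not be separable. Neighbours of another Period row, LOC109057329, had smaller p and went the other way. They were the integral membrane protein 2C rows LOC109057292 (log2 fold change -1.05, edgeR adjusted p = 0.161) and LOC109057330 (-1.21, edgeR adjusted p = 0.181). Neither passed.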

How the data were processed

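Per the labels' protocols, poly(A) RNA was selected from Trizol-extracted brain RNA and sequenced as paired ends. HISAT2 2.0, StringTie 1.3.0 and Bowtie 0.12.2 are listed with no role in the submitters' processing notes, beside a mouse build (mm8), while the table places genes on carp RefSeq sequences. Counts were deposited as whole numbers per gene without scaling, and FPKM values were made by the authors, per the file headers; use of strand and of reads on several copies is not given.

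Counts were fitted with edgeR 4.0.16 (R 4.3.3; TMM scaling, robust quasi-likelihood test, Benjamini-Hochberg adjustment) on the 32149 genes that reached an FPKM of 1 in 3 or more libraries. Calls were made at an adjusted p under 0.05. Log2 ratios used a pseudocount of 0.5 CPM, and exact permutation tests used scipy 1.17.1. Implied transcript length is the median over libraries of count per FPKM and total count. Intervals are at 95%. On simulated data over 32149 genes, lead against control, 20%, 80% and 96% of genes changed 2-fold, 4-fold and 8-fold were recovered. At 1.5-fold it was 0%, and 14 unchanged genes were called. With 50 changed genes per fold, that is a larger share of the calls than the threshold of 0.05 aims at. Genes were simulated independently, with no shift shared within a library, so recovery in the real data may differ. The changed genes were drawn from those with a mean of at least 5 CPM. LOC109065759 and LOC109098973 lie under that level, so these shares do not cover them.

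The Period rows, lists and tests were chosen with earlier results of these data known. Named genes are all Period rows, the 2 tested genes of smallest p in each clock list (1 list is not reported here), the 3 genes of closest profile for the highest Period row of each type, and neighbours of Period rows. The K21944 rows were added after the data were seen. Alternatives were other scalings, filters, DESeq2 1.42.0, limma 3.58.1 on log2(FPKM), a replicate block, and fits with 1 library left out. In analyses without a library the same genes were kept.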

Additional observations from a re-analysis of the deposited data

How the results depend on the processing

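No Period row was called in any of 112 alternative fits of single rows, and the lowest adjusted p was 0.15 (DESeq2, LOC109057329); DESeq2 gave no adjusted p for LOC109065759. Direction turned in 4 of the 112, for LOC109057293 without lead replicate 1 (0.012) or control replicate 3 (0.091; range with a library left out -0.24 to 0.091), and for LOC109098973 without control replicate 2 (0.033) or control replicate 3 (0.021; range -0.63 to 0.033). The number of Period rows with an unadjusted p under 0.05 was 1, but 2 with DESeq2, 0 with an FPKM of at least 5 in 3 libraries (4 rows tested), and 0 to 2 with a library left out. Genes called over all genes numbered 19, but 30 with no low-value filter, 1340 with DESeq2, 0 with no robust step and no trend (which edgeR fit left 4938 at an unadjusted p under 0.05), 9 with limma on log2(FPKM + 0.01), 1 with the replicate block and 4 to 25 with a library left out. The causes were not tested. The log2 difference of the summed homolog 1 rows ran from -0.58 to 0.045 with a library left out, and turned without control replicate 2 (0.045) or control replicate 3 (0.0060). That of the summed homolog 2 rows stayed positive. The ratio of LOC109098972 to LOC109098973 turned without lead replicate 1 (0.083) or control replicate 1 (0.0078; range -0.58 to 0.083), and that of LOC109057329 to LOC109098978 without lead replicate 2 (-0.31; range -0.31 to 0.62).

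Equal replicate numbers in the 2 groups are not stated to pair libraries. Deviations from the group means correlated at 0.162, 0.0573 and 0.117 over genes for equal numbers, and at -0.183 to 0.0721 for unequal numbers. Equal numbers tended to be higher. Deviations cancel out within a group, so higher values for equal numbers force lower ones for unequal numbers, and the ranges are not independent. So few libraries cannot show whether they were paired. The numbers were not taken as pairs because no label states it. With the replicate block, 0 Period rows were called and 1 had an unadjusted p under 0.05. Counts under 70 per library in LOC109065759 and 3 libraries per group limit precision, and no row shown as not called is shown to be unchanged.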
